A study of Rattus norvegicus with 399 samples.

Results

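The response of the liver to 1,4-dichlorobenzene (1,4-DCB) was set against the response of the kidney in the same rats. The comparison used 30 of the 399 libraries of the series: Liver Left Lobe and Kidney from 10 control rats (0 ppm) and from 5 rats exposed at 800 ppm. They were chosen by compound, tissue and concentration in the labels, and none of them carried a quality flag. All rats were female, Sprague-Dawley and 9 weeks old, and tissues were taken on study day 5. The rats had no other treatment in the labels, and these do not state the route, the daily hours of exposure or the hour of collection. Transcripts were measured with TempO-Seq, in which a pair of detector oligonucleotides is ligated on a chosen stretch of a transcript and sequenced, on the Rat S1500+ panel. The 5 exposed rats are F601 to F605 and the 10 controls are F1 to F10, and each rat gave 1 liver and 1 kidney library.

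1,4-DCB is a chlorinated benzene known from moth repellents and air fresheners. In liver, hepatocytes oxidize such compounds with cytochrome P450 enzymes, conjugate the products and export them into bile or blood, and the nuclear receptors CAR and PXR switch on many of these enzymes. NRF2 is a transcription factor that switches on antioxidant and NADPH-supplying genes. The kidney receives products of this metabolism for excretion, and its proximal tubule shares with liver the capacity for glucose synthesis, fatty acid oxidation and drug conjugation.

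Of 2654 probes, 1974 passed the filter on low counts in both tissues and were tested; 45 passed in liver only, 351 in kidney only and 284 in neither. Levels are counts per 1e6 counts (CPM), scaled within each tissue. Liver libraries of the 7 concentrations held 25.5 to 69.8 M counts and kidney libraries 4.2 to 42.5 M (M, 1e6 counts). These are adjusted counts, and for some probes all of them are multiples of a step above 1. With each probe divided by its step, liver libraries held 4.14 to 11.1 M and kidney libraries 1.22 to 11.6 M. The tissue labels fit the defining markers: Slc22a6, the organic anion transporter of the proximal tubule, and Aqp2, the water channel of the collecting duct, were 0 in every liver library, and albumin (Alb) ran from 63950 to 130600 CPM in liver against 13.8 to 267.5 CPM in kidney. No liver library correlated with a kidney library above 0.6219, and within a tissue no pair fell below 0.9429. Kidney control F1 stood somewhat apart, with a median correlation of 0.9489 with its own group. Without F1, 327 probes were called in the comparison described next.

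The quantity tested is the difference of changes, the log2 change in liver (800 against 0 ppm) minus the log2 change in kidney, fitted with edgeR across rats with each rat as a block. A positive difference is written as towards liver and a negative one as towards kidney; a gene that fell less in liver than in kidney is therefore also towards liver. At 800 ppm 313 of 1974 probes, 15.9%, were called at an adjusted p below 0.05, 163 towards liver (8.26%) and 150 towards kidney (7.6%). Within liver 704 probes were called against controls, 35.7%, and within kidney 5.47%. Among the probes called towards liver the median difference was 1.29, with a median change of 1.01 in liver and -0.12 in kidney, and 150 of the 163 had the larger absolute change in liver. Among those called towards kidney the median difference was -0.60, with -0.49 in liver and 0.08 in kidney.

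The split between the directions depended on the scaling. With joint TMM factors 52.1% of calls were towards liver; with TMM factors from each tissue alone it was 68.5% (196 towards liver and 90 towards kidney), and with library totals only 88% (221 and 30). The median difference over all probes was -0.07 with joint TMM factors, 0.02 with factors from each tissue alone and 0.15 with library totals only, so small differences towards kidney are to be read relative to that shift. Fewer cells of a type and less RNA per cell cannot be told apart in these tissue samples.

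**Figure D1:**
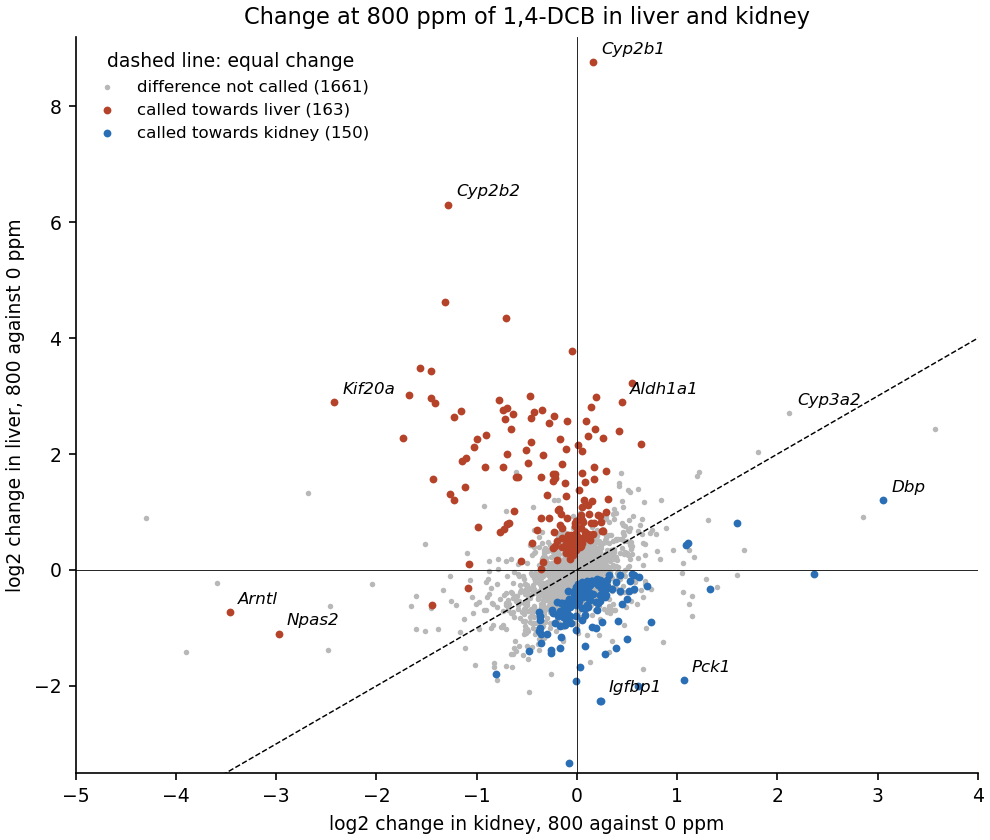
Log2 change at 800 ppm in kidney (horizontal axis) and in liver (vertical axis) for the 1974 tested probes, 1 point a probe. Red points are the 163 probes called towards liver, blue points the 150 called towards kidney, and grey points the rest. The dashed line marks equal change. Cyp2b1 (0.16 in kidney) and Cyp2b2 (-1.29 in kidney) lie far above the line, with no called change in kidney. Arntl, Npas2 and Dbp changed in the same direction in both tissues with the larger change in kidney.

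Targets of CAR and PXR held the differences of largest size, Cyp2b1 and Cyp2b2. Of 17 tested members 7 were called towards liver and 0 towards kidney (41.2%, beside 15.9% over all probes). The median difference was 0.49, against -0.07 over all probes. In liver 12 rose and 1 fell, and in kidney 4 rose, beside 35.7% and 5.47% of all probes called there in either direction. Cyp2b1, the phenobarbital-inducible P450, ran from 0.194 to 2.69 CPM in control livers with a median of 1.31, and stood at 798, 813, 651, 436 and 365 CPM in the livers of F601 to F605. In the kidneys of the same rats it stayed at 0.626, 1.03, 1.21, 1.09 and 1.4 CPM, within the control range of 0.058 to 2.43 CPM. Exposed and control livers did not overlap, whereas exposed kidneys lay inside the control range, and the difference was 8.65 ± 0.91 (SE; adjusted p = 1.14e-08). Cyp2b2, its close paralog, reached 359 to 797 CPM in exposed liver from a control median of 6.01 CPM. Exposed kidneys held 1.16 to 3.81 CPM. The change of Cyp2b2 was 6.30 in liver and -1.29 in kidney, where it was not called (adjusted p = 0.58). Its difference was 7.74 ± 1.21 (adjusted p = 1.31e-05). The labels do not state whether these probes separate the paralogs.

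Aldh1a1, an aldehyde dehydrogenase that also makes retinoic acid, started low in liver and high in kidney. Control livers held 635 to 1236 CPM (median 1054) and exposed livers 10273, 9110, 6353, 6087 and 5632 CPM. Control kidneys held 5131 to 9328 CPM (median 7704) and exposed kidneys 10286, 10459, 11011, 9305 and 10649 CPM. Livers separated, while the exposed kidney of F604 lay just inside the control range. Aldh1a1 rose in both tissues, by 2.90 ± 0.16 in liver and 0.45 ± 0.10 in kidney, and the difference was 2.41 ± 0.19 (adjusted p = 3.99e-12). Ephx1, the microsomal epoxide hydrolase, rose likewise in both, from a control median of 56.3 CPM to 264 to 395 CPM in liver and from 90.05 CPM to 99.6 to 144.2 CPM in kidney (difference 2.01 ± 0.20, adjusted p = 1.42e-09).

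Other members differed in their starting point. Abcc3, the basolateral exporter of conjugates (named, like Cyp2c24, Abcb1b, Por and Alas1, after its values were seen), stood at 18.9, 20.6, 16.8, 12.97 and 11.98 CPM in exposed liver against 1.88 to 3.72 CPM in control liver, and at 15.7 to 22.6 CPM in exposed against 16.9 to 23.2 CPM in control kidney (difference 2.68 ± 0.25, adjusted p = 2.95e-10). Cyp2c24 (5.31 ± 1.09) and the P-glycoprotein Abcb1b (2.41 ± 0.61, adjusted p = 0.0051, and 0.088 with voom) were also towards liver, both from below 1 CPM in control liver. For Cyp3a2, a steroid and drug hydroxylase, liver rose by 2.70 ± 0.24 to between 3069 and 6728 CPM, and kidney stood at 8.95, 21, 1.79, 8.44 and 23.6 CPM against 0 to 7.86 CPM in controls. The difference of 0.64 ± 1.02 was not called (adjusted p = 0.75), and exposed and control kidneys overlapped. Por, the reductase that feeds electrons to P450 enzymes, and Alas1, the first enzyme of heme synthesis, rose in both tissues without a called difference: by 0.77 in liver and 0.46 in kidney for Por (difference 0.33, 95% interval 0.004 to 0.65, adjusted p = 0.17) and by 0.69 and 0.51 for Alas1 (difference 0.22, interval -0.02 to 0.46, adjusted p = 0.24). Of the members that passed the filter in liver only, Ugt2b1 went from a median of 46.6 to 258 CPM and Cyp3a23/3a1 from 6.63 to 35.7 CPM, with at most 0.72 and 0.17 CPM in any kidney; Cyp2a1 (3.74 and 3.77 CPM) and Nr1i3, which encodes CAR itself (0.505 and 0.587 CPM), hardly moved.

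NRF2 targets were called towards liver in 20 of 29 tested members and towards kidney in 0 (69%, beside 15.9% over all probes). The median difference was 0.91, with a median change of 0.93 in liver and 0.08 in kidney. In liver 25 rose and 0 fell, and in kidney 3 rose and 0 fell. The shares called over all probes were 35.7% in liver and 5.47% in kidney, in either direction. The control level, as a share of the library, was higher in kidney than in liver for 27 of the 29. The lists share members: 11 of the 29 NRF2 genes and 5 of the 17 CAR and PXR genes are also in other lists. The same call can therefore count in more than 1 list. Ephx1, described above, is a member of the NRF2 list. Gstp1, a glutathione S-transferase, held 1.68 to 5.66 CPM in control liver and 9.73, 22.9, 32.4, 36.3 and 16.6 CPM in exposed liver, against 120.6 to 194 CPM in control and 141.8 to 192 CPM in exposed kidney. Only liver moved out of its control range, and the difference was 2.61 ± 0.37 (adjusted p = 3.23e-06).

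Akr7a3, an aldehyde reductase, went from a control median of 4.13 CPM to 55.3, 45.1, 46.9, 32.2 and 31.5 CPM in liver. In kidney it went from a median of 215 CPM to 352, 309, 327, 326 and 316 CPM, above every control (180 to 283 CPM). It thus rose in both tissues, by 3.23 in liver and 0.55 in kidney, with a difference of 2.72 ± 0.32 (adjusted p = 1.06e-07). Me1, the malic enzyme that supplies NADPH, moved in liver only, from 3.47 to 5.77 CPM in controls to 20.7 to 32.6 CPM, while kidney stood at 40.5 to 54.3 CPM against 36.8 to 75.2 CPM in controls (difference 2.46 ± 0.25, adjusted p = 1.56e-09). Gsta2, an alpha class transferase, had a difference of 1.47 ± 0.20. Of the genes named after their values were seen, Gclm, the modifier subunit of glutathione synthesis, had 1.44 ± 0.21, Gsr, glutathione reductase, 1.15 ± 0.26, and Akr1b8, an aldose reductase family member, 4.63 ± 1.25 from below 1 CPM in control liver.

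Hmox1, heme oxygenase, showed how 1 kidney can set a value. Exposed livers held 62.03 to 80.5 CPM against 27.8 to 65.9 CPM in controls, and exposed kidneys 18.5, 751, 30.8, 35.3 and 23.2 CPM against 16.8 to 34.2 CPM. The kidney of F602 stood far above the others, the difference was 0.07 ± 0.45 with the rat as block (adjusted p = 0.95), and without the block it was -1.93. Hmox1 was added after its values were seen.

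The antioxidant response element is the site at which NRF2 acts. Its core, TGACNNNGC on either strand, was in the promoter window (around the gene start, RefSeq, GRCr8) of 7 of the 17 NRF2 targets called towards liver that had a window (41.2%), against 12.1% of 33469 rat promoters and 15.1% of those of tested genes. A match is a description of letters and no measured site. Targets that were not called were not counted, and a relation of the core to the response was not tested. Gclm and Gstp1 are shown because both moved in liver and not in kidney; capitals mark the core.
Gclm, chr2:213031885-213032184, plus strand: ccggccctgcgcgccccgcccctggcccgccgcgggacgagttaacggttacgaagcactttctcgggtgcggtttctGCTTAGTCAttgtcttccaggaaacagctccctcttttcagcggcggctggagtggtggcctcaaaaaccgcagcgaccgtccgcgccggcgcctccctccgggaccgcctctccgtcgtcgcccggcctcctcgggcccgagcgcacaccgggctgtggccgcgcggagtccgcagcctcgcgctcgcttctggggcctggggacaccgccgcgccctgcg
Gstp1, chr1:210769656-210769955, minus strand: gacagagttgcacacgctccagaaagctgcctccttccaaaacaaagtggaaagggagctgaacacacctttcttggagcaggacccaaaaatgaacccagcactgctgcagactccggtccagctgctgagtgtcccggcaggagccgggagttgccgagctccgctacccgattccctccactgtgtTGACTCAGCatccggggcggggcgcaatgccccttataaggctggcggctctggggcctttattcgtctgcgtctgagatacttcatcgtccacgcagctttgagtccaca

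**Figure D2:**
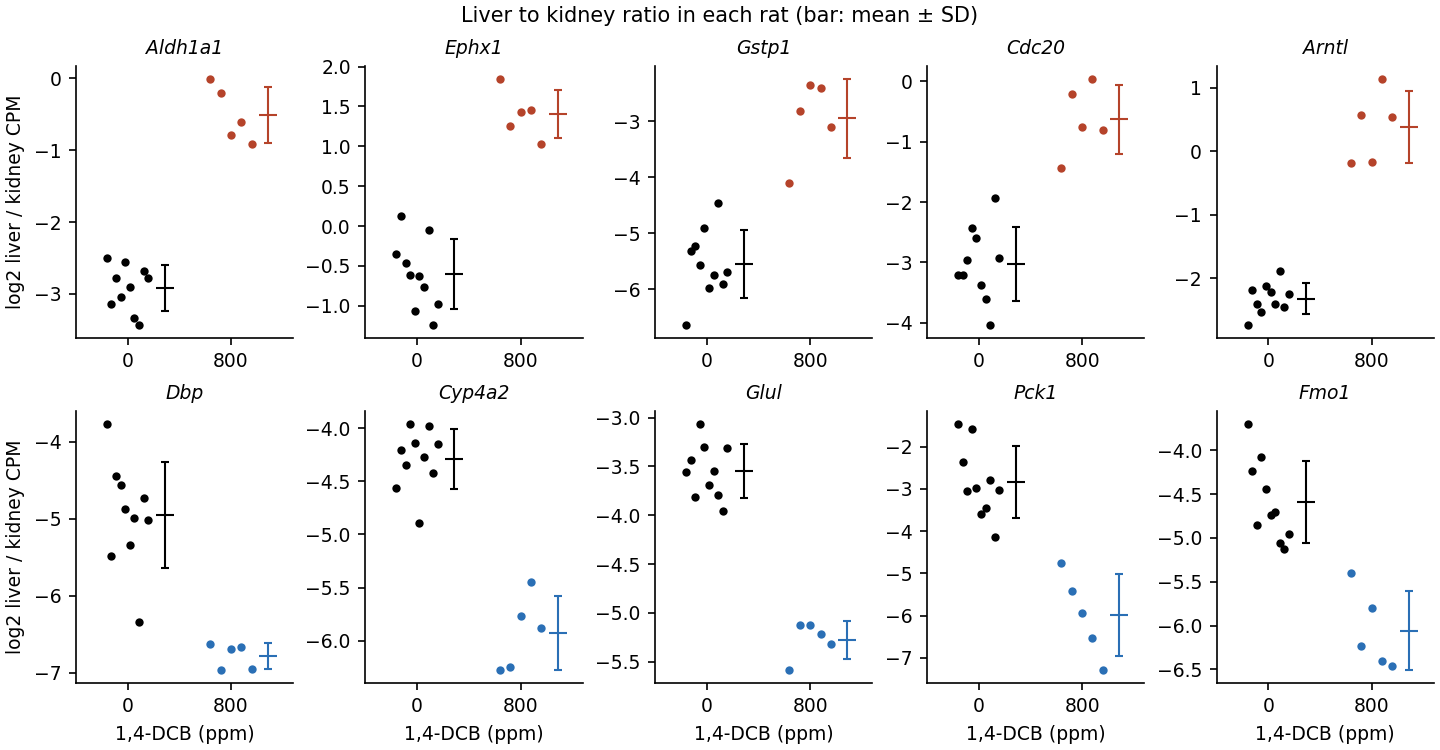
Log2 ratio of liver to kidney CPM in each rat at 0 ppm (10 rats, black) and 800 ppm (5 rats, coloured) for 10 genes, with the mean and SD beside the points. In all 10 genes the 5 exposed rats lie outside the range of the controls, above it for Aldh1a1, Ephx1, Gstp1, Cdc20 and Arntl and below it for Dbp, Cyp4a2, Glul, Pck1 and Fmo1; each panel has its own vertical scale.

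Over all probes, the ratio of liver to kidney in all 5 exposed rats lay above every control for 64 probes (3.24%) and below every control for 37 (1.87%). Rats whose ratio stands apart in single genes are given in the closing section.

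Cell cycle genes held more calls than any other list. Of 50 tested members 38 were called towards liver and 1 towards kidney (78%, beside 15.9% over all probes), and the median difference was 1.96. Of 69 probes of the list on the panel, 9 passed the filter on low counts in kidney only and 10 in neither. The filter took in exposed libraries, so a member could pass in liver through its rise, and this was not tested. In liver 41 rose and 0 fell (median change 1.68), and in kidney 0 rose and 6 fell (median change -0.28). The called shares over all probes were 35.7% in liver and 5.47% in kidney. Control levels were low and, as a share of the library, higher in kidney for 49 of the 50: the median member held 0.373 CPM in control liver, 1.52 CPM in exposed liver, 3.06 CPM in control kidney and 2.17 CPM in exposed kidney. Only 1 member reached 20 CPM in exposed liver, Stmn1, a microtubule regulator, and a filter at a mean of 20 CPM in both tissues left 0 members of the list to test.

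By the naming rule Stmn1 and Pcna stand for the list. Stmn1 held 5.67 to 9.15 CPM in control liver and 17.4, 22.4, 26.5, 31.01 and 20.9 CPM in exposed liver, and 354 to 505.5 CPM in control and 441 to 505.3 CPM in exposed kidney (difference 1.61 ± 0.20, adjusted p = 1.67e-07). Pcna, the sliding clamp of DNA polymerase, held 7.48 to 9.71 CPM in control liver and 13.3, 15.4, 15.7, 17.2 and 12.6 CPM in exposed liver, with 89.5 to 103.8 CPM in exposed and 80.7 to 123.9 CPM in control kidney (0.83 ± 0.11, adjusted p = 1.31e-06). In both genes the livers separated fully and the kidneys overlapped.

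The genes described next were named after their values were seen, and all but Spc24 are members of the list. Cdc20, the activator of the anaphase-promoting complex, stood at 3.80, 5.18, 6.01, 7.95 and 4.21 CPM in exposed against 0.676 to 2.13 CPM in control liver, and at 5.97 to 10.3 CPM in exposed against 6.23 to 14.1 CPM in control kidney (2.44 ± 0.31, adjusted p = 2.29e-07). In several genes of mitosis the tissues went opposite ways. Spc24, a kinetochore subunit, rose by 2.76 in liver and fell by 0.73 in kidney, Ccnb2, a mitotic cyclin, rose by 1.78 and fell by 0.92, Mki67, the proliferation marker, rose by 1.88 and fell by 1.15, Cenpf, a centromere protein, rose by 2.64 and fell by 1.22, and Kif20a, a kinesin of cytokinesis, rose by 2.89 and fell by 2.43. Each of these changes was called within its tissue and each difference was called. The kidney falls lay nearer the threshold than the liver rises. Their adjusted p was 0.0077 for Spc24, 0.023 for Ccnb2, 0.029 for Mki67 and Cenpf, and 0.042 for Kif20a. The replication genes Mcm6 (difference 2.02 ± 0.52) and Top2a (3.55 ± 0.80) moved in liver, with no called change in kidney. The member towards kidney was Ccnd1, a G1 cyclin, at -0.68 ± 0.21 (adjusted p = 0.022), which held no call with TMM factors from each tissue alone, with library totals only, without the block, with voom, or without F601 or F603.

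Promoters of mitotic genes are known for a CCAAT box and the cell cycle homology region (CHR). Of the 38 cell cycle genes called towards liver 34 had a promoter window. CCAAT on either strand was in 27 of them (79.4%), against 37.5% of all promoters and 41.4% of those of tested genes. TTTGAA on either strand, the CHR, was in 20 (58.8%), against 18.3% and 13.5%. Members of the list that were not called were not counted, so these shares describe the list and not its response. Ccnb2 and Cdc20 are shown as members with both; capitals mark CCAAT and TTTGAA.
Ccnb2, chr8:79981609-79981908, minus strand: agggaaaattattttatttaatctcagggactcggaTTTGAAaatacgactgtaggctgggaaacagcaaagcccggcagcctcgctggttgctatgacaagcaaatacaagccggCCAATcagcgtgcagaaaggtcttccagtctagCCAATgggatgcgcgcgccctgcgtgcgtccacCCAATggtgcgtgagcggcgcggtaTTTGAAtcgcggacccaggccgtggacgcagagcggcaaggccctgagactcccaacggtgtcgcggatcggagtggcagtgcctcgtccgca
Cdc20, chr5:137255750-137256049, minus strand: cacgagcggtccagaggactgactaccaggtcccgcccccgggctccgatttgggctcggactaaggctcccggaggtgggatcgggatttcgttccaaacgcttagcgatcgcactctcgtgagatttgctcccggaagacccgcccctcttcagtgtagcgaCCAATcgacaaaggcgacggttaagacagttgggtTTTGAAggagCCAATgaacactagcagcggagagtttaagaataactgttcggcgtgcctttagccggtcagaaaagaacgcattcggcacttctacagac

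**Figure D3:**
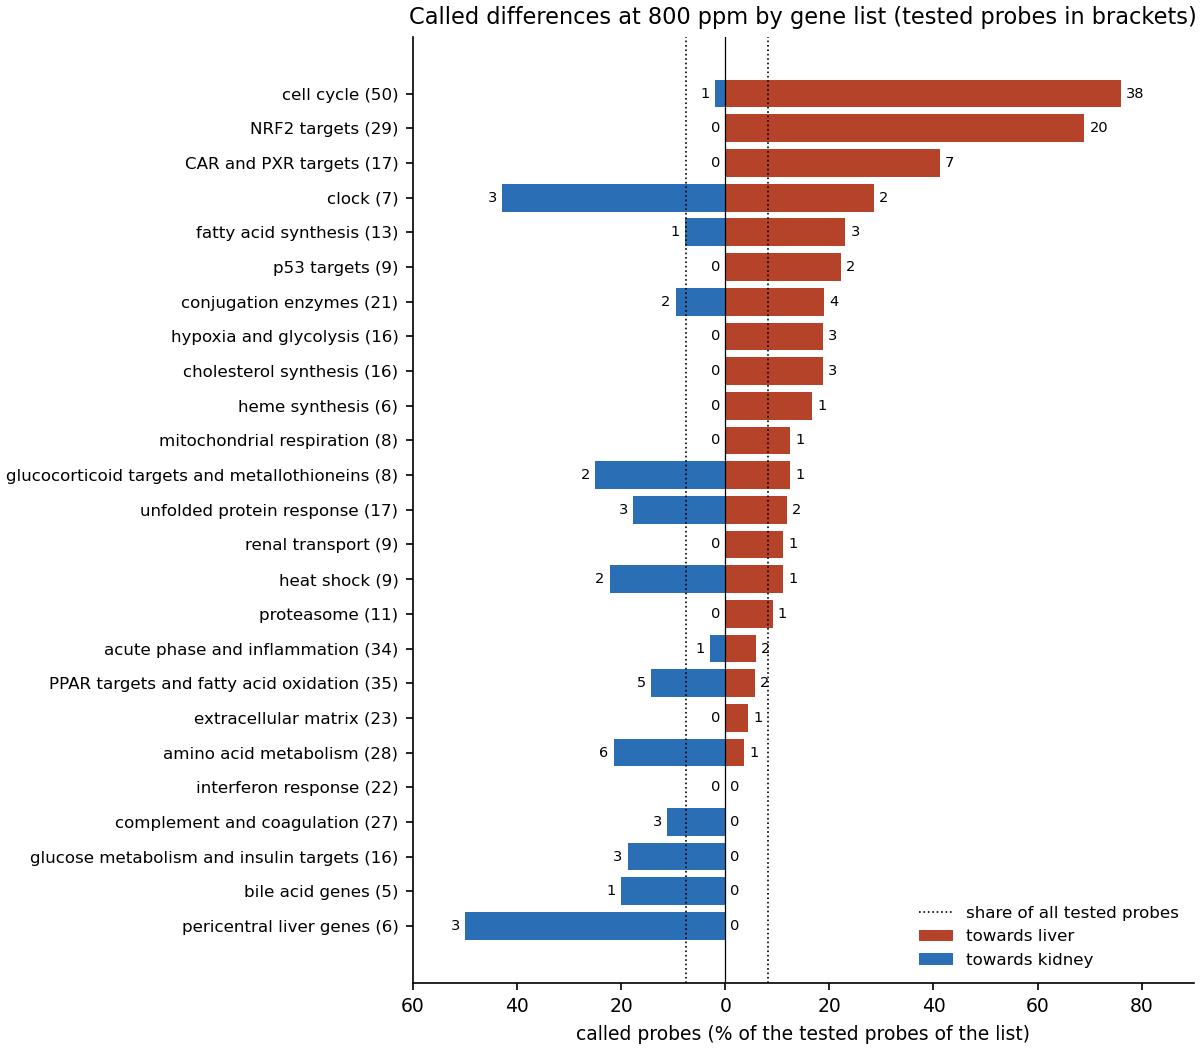
Share of the tested probes of each gene list that were called towards liver (red, right) or towards kidney (blue, left) at 800 ppm; numbers at the bars are counts of probes, numbers in brackets are probes tested, and dotted lines mark the share over all 1974 probes (8.26% and 7.6%). Cell cycle (38 of 50), NRF2 (20 of 29) and CAR and PXR targets (7 of 17) stand furthest towards liver. A gene can be in more than 1 list.

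Genes of the circadian clock changed in both tissues, with 2 rising and 3 falling in liver and 3 and 3 in kidney. Of 7 tested members 2 were called towards liver and 3 towards kidney (71.4%, beside 15.9% over all probes). Within liver 35.7% of all probes were called and within kidney 5.47%. Arntl, which encodes the clock activator BMAL1, held 45.7 to 93.2 CPM in control kidney (median 59.8) and 6.35, 4.94, 6.86, 3.23 and 7.03 CPM in exposed kidney. In liver it held 10.3 to 13.9 CPM in controls (median 12.3) and 5.65, 7.42, 6.13, 7.27 and 10.3 CPM after exposure. All 5 exposed rats lay below every control in each tissue, F605 only just in liver, and the fall was 3.46 on the log2 scale in kidney and 0.73 in liver, so that the difference, 2.72 ± 0.18, had the smallest p of the 1974 probes (adjusted p = 4.74e-14). Npas2, a partner of BMAL1, went from 17.9 to 36.4 CPM in control kidney to 4.16, 5.27, 3.09, 1.27 and 3.61 CPM, and from 3.30 to 5.52 CPM in control liver to 1.23 to 2.85 CPM (difference 1.90 ± 0.27, adjusted p = 1.57e-06).

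Dbp, a clock output factor that BMAL1 drives, moved the other way. Control kidneys held 87.97 to 153.6 CPM and exposed kidneys 1082, 1015, 967, 949 and 874 CPM, and control livers 1.83 to 6.43 CPM and exposed livers 10.95, 8.04, 9.32, 9.38 and 7.03 CPM. The rise was 3.06 ± 0.14 in kidney and 1.21 ± 0.16 in liver, with no overlap in either tissue (difference -1.83 ± 0.23, adjusted p = 1.86e-07). Nr1d2, a repressor within the clock and named with the next 2 genes after its values were seen, rose by 1.59 in kidney and 0.81 in liver (difference -0.81 ± 0.17, adjusted p = 0.00063, and 0.051 without the rat as block). Bhlhe40 (DEC1), another repressor, had a difference of -0.996 ± 0.229 (adjusted p = 0.0019), with a rise of 0.45 in kidney and -0.58 in liver, which was not called. Nfil3, which opposes Dbp, fell by 2.49 in kidney and 1.38 in liver with a difference of 1.07 ± 0.39 (adjusted p = 0.058), called with DESeq2 and with TMM factors from each tissue alone or library totals only. The labels do not give the hour of collection of each rat, and its part in these values was not tested.

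**Figure D4:**
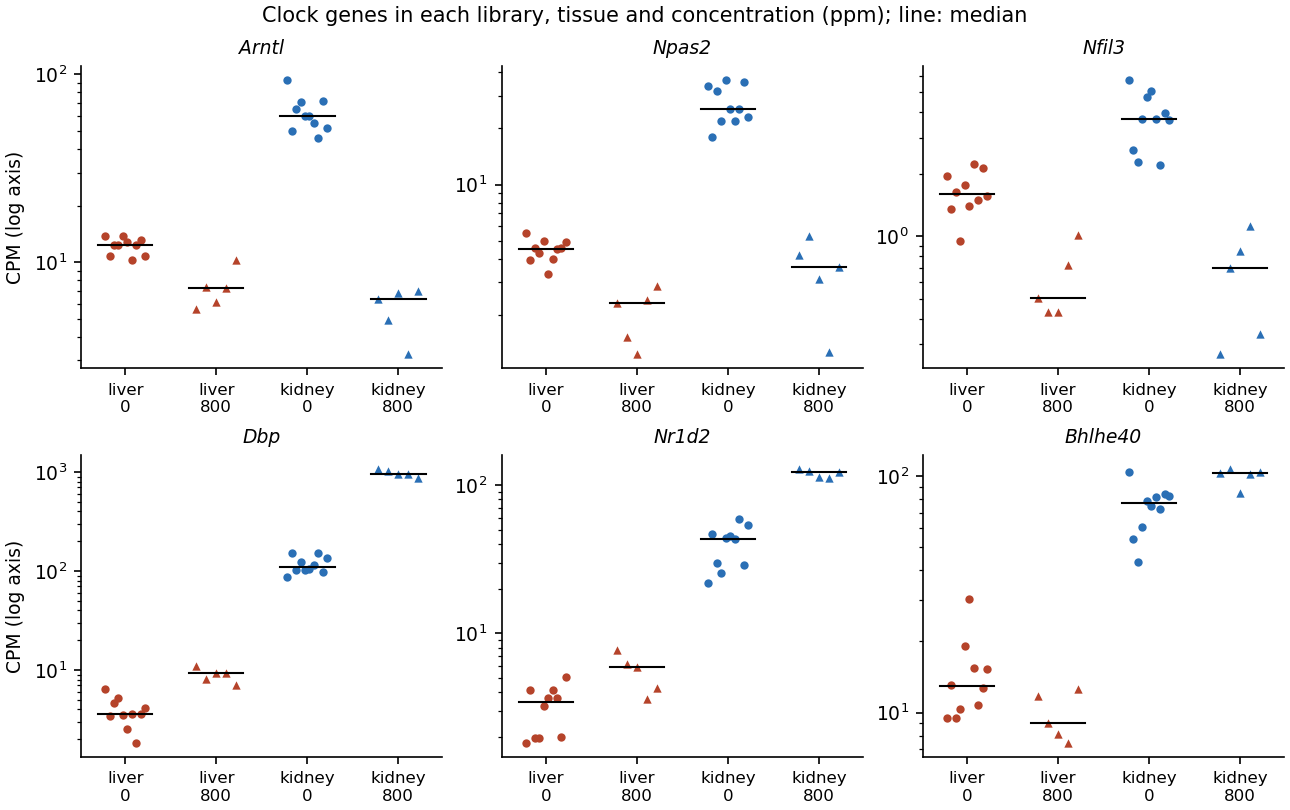
CPM (log axis) of 6 clock genes in each library, liver in red and kidney in blue, circles for the 10 controls and triangles for the 5 rats at 800 ppm, with a line at the median. Exposed kidneys lie below every control for Arntl, Npas2 and Nfil3 and above every control for Dbp and Nr1d2, and exposed livers below every control for Arntl and Npas2 and above for Dbp.

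BMAL1 transcription is known to be controlled through ROR elements near its start. The core TAGGTCA on either strand was in the window of Arntl, 1 of the 5 called clock genes (20%), and in 2.63% of all promoters and 2.37% of those of tested genes; the E-box CACGTG was in that of Bhlhe40 and in 6.42% and 9.54%. The window of Arntl (current symbol Bmal1) is shown because its difference ranked first; capitals mark the core.
Arntl, chr1:176766078-176766377, plus strand: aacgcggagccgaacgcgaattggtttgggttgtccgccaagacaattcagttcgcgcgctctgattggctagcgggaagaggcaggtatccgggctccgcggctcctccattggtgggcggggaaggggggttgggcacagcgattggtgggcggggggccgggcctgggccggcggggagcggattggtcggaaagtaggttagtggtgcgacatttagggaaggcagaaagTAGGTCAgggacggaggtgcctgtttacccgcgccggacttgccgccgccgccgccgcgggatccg

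Among targets of PPAR alpha and genes of fatty acid oxidation, 2 of 35 were called towards liver and 5 towards kidney, beside 8.26% and 7.6% of all probes. With library totals only the counts were 4 and 2. Cyp4a2, a fatty acid hydroxylase, went in kidney from 2087 to 3828 CPM to 7268, 11336, 6169, 4902 and 7564 CPM, and in liver from 117.6 to 192 CPM to 93.6, 150, 113.4, 112.5 and 128.1 CPM, a fall of 0.32 that was called (adjusted p = 0.023) although the ranges overlapped (difference -1.63 ± 0.20, adjusted p = 1.55e-07).

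Ehhadh, the bifunctional enzyme of peroxisomal oxidation, rose in both, by 1.1 in kidney and 0.47 in liver (difference -0.65 ± 0.17, adjusted p = 0.0067). That difference lost its call without the block (adjusted p = 0.18) and with library totals only. Acaa1a, the peroxisomal thiolase, and Vnn1, a pantetheinase, both named after their values were seen, rose in both tissues with no called difference. Acaa1a rose by 1.2 in liver and 0.84 in kidney (difference 0.34, 95% interval -0.07 to 0.75, adjusted p = 0.28) and Vnn1 by 1.68 and 1.22 (0.43, interval -0.14 to 1.01, adjusted p = 0.34).

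Of 16 tested members of the glucose and insulin list 0 were called towards liver and 3 towards kidney, Pck1, Igfbp1 and Slc2a2. That share, 18.8%, is near the 15.9% over all probes, and the median difference was -0.09 against -0.07; 4 members fell in liver and 1 rose in kidney. Pck1, the rate-limiting enzyme of glucose synthesis, held 176 to 1122 CPM in control liver (median 382) and 316, 190, 110, 51.6 and 56.3 CPM in exposed liver. Its kidney levels went from 1976 to 7565 CPM (median 3052) to 8570, 8073, 6743, 4736 and 8863 CPM. Each tissue overlapped with its controls, but the ratio of liver to kidney, -7.30 to -4.76 on the log2 scale in exposed rats, lay below every control (-4.15 to -1.46). The fall of 1.90 in liver and the rise of 1.06 in kidney were both called, and the difference was -3.13 ± 0.46 (adjusted p = 4.55e-06).

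Igfbp1, an insulin-repressed binding protein of IGF, fell by 2.25 in liver, from 13.5 to 103.9 CPM to 10.2, 11.2, 8.17, 2.05 and 8.08 CPM, with kidney at 50.98 to 176 CPM against 51.1 to 107.2 CPM (difference -2.31 ± 0.50, adjusted p = 0.0011). Slc2a2, the glucose transporter GLUT2, had a difference of -0.93 ± 0.19, with a fall of 0.36 in liver and a kidney value of 0.52 ± 0.21 that was not called. Egr1, an immediate early gene whose control livers spread from 4.29 to 38.2 CPM, stood at 1.83 to 2.99 CPM in exposed liver and 26.3 to 83.2 CPM in exposed kidney (-2.08 ± 0.52, adjusted p = 0.0045).

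Of the genes that mark cells around the central vein of the liver lobule, 3 of 6 fell in liver and 1 rose in kidney. Among all probes 35.7% were called in liver and 5.47% in kidney, in either direction. Of the 6, 3 were called towards kidney and 0 towards liver (50%, beside 15.9% over all probes). The counts of calls were the same with TMM factors from each tissue alone and with library totals only. Glul, glutamine synthetase, went from 41.6 to 78.3 CPM in control liver to 16.7, 21.7, 21.9, 23.9 and 21.7 CPM, and from 488 to 733 CPM in control kidney to 805, 759, 764, 886 and 869 CPM. No group overlapped in either tissue, liver fell by 1.34 and kidney rose by 0.39, and the difference was -1.73 ± 0.14 (adjusted p = 5.08e-12). Cyp2e1, the P450 that oxidizes small solvents, fell in liver from 2103 to 3441 CPM to 1385, 1677, 1598, 1257 and 1795 CPM, with 1427 to 2089 CPM in exposed and 765 to 1992 CPM in control kidney (-1.17 ± 0.18, adjusted p = 8.54e-06). Rgn, regucalcin, was the other called member (-1.05 ± 0.26, named after its values were seen). In the same livers 7 of 13 hepatocyte markers fell and 1 rose, and their summed level was 468441 to 674864 CPM against 565179 to 642363 CPM in controls; the part of this in the result was not tested.

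Amino acid metabolism was called towards kidney in 6 of 28 and towards liver in 1, against 3 and 3 with library totals only. The called share was 25%, beside 15.9% over all probes. Besides Glul, Got1, the cytosolic aspartate transaminase, was named by the rule (-0.78 ± 0.19, adjusted p = 0.0028). Sds, serine dehydratase, added after its values were seen, had -2.57 ± 0.73 (adjusted p = 0.012) and 0.053 without F603. Other enzymes towards kidney fell in liver from very different levels in the tissues. Fmo1, a flavin monooxygenase, went from 24.2 to 36.98 CPM to 18.5, 11.2, 13.1, 7.79 and 10.1 CPM in liver, with 663 to 892 CPM in exposed kidney inside the control range of 432 to 946 CPM (-1.47 ± 0.23, adjusted p = 7.39e-06). Hao2, a hydroxy acid oxidase, fell in liver by 1.45 from a median of 55.4 CPM and in kidney held 42734 to 58691 CPM against 32195 to 49830 CPM (-1.72 ± 0.31, adjusted p = 8.99e-05, and 0.34 with DESeq2). Fgfr4, the FGF19 receptor of hepatocytes, was called at -0.80 ± 0.14.

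Of 16 cholesterol synthesis genes 11 rose in liver, and 6 rose and 1 fell in kidney. Over all probes 35.7% were called in liver and 5.47% in kidney, in either direction. In this list 3 differences were called towards liver and 0 towards kidney (18.8%, near the 15.9% over all probes). The gene that fell in kidney was Dhcr7, the last enzyme of the pathway, by 0.77 while it rose by 0.65 in liver (difference 1.48 ± 0.23, adjusted p = 9.36e-06; named after its values were seen). Insig1, the sterol sensor partner, rose by 0.63 and 0.73 (difference -0.06, 95% interval -0.57 to 0.44). Of 13 fatty acid synthesis genes 9 rose and 2 fell in liver and 3 rose in kidney. Here 3 differences were called towards liver and 1 towards kidney (30.8%, beside 15.9% over all probes). Acly, which makes cytosolic acetyl-CoA, stood at 127.5, 195, 133.6, 315 and 224 CPM in exposed against 70.5 to 99.6 CPM in control liver, and at 134.3 to 155.5 CPM in exposed kidney inside the control range (1.25 ± 0.21, adjusted p = 3.16e-05). The elongase Elovl6 rose by 2.17 in liver and 0.64 in kidney (1.45 ± 0.25, adjusted p = 5.43e-05), and the desaturase Fads1 by 0.69 and 0.75 (-0.05, interval -0.43 to 0.32); both were named after their values were seen.

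Smaller lists held up to 5 calls each. In the heat shock list 3 of 9 were called (33.3%; 1 towards liver and 2 towards kidney), in the unfolded protein response 5 of 17 (29.4%; 2 and 3), among p53 targets 2 of 9 (22.2%, both towards liver) and in hypoxia and glycolysis 3 of 16 (18.8%, all towards liver), beside 15.9% over all probes. Ndrg1, a stress-induced gene, fell more in kidney than in liver, from 81377 to 183171 CPM to 48618, 44481, 47535, 62456 and 55060 CPM and from 41.6 to 64.8 CPM to 29.5 to 40.4 CPM (difference 0.81 ± 0.23, adjusted p = 0.012, but 0.73 with DESeq2, and also not called without F602). The chaperone Hspa8 rose in kidney by 0.53 with no called change in liver (-0.73 ± 0.14), as did Herpud1 of the endoplasmic reticulum (0.55; difference -0.61 ± 0.11, not called with library totals only). The p53 ligase Mdm2 rose in liver by 0.45 (difference 0.50 ± 0.11), and Hspd1, the mitochondrial chaperonin, by 0.61 (0.45 ± 0.13, adjusted p = 0.015, and not called without F602). Gapdh, of glycolysis, rose in both tissues, by 0.68 and 0.25 (0.42 ± 0.12, not called without F604). Idh3a, of the citric acid cycle, had a difference of 0.39, Ppox, of heme synthesis, 0.53 (not called without F604), Trib3, of the stress response and named after its values were seen, 2.58, Gadd45a, a p53 target, 0.65 and Cebpb, a transcription factor of hepatocytes, 0.65. For Gadd45a the fall of 0.24 in kidney was called and the liver value of 0.38 was not (adjusted p = 0.083). For Cebpb neither change was called, 0.16 in liver and -0.56 in kidney. Ust5r had 2.06 with all livers below 1 CPM, and Etv1, an ETS factor, had -1.24 (not called with voom). The calls of Edem1 (-0.39), Il1r1 (-0.68) and Psma5 (0.25) were lost in 5 or more alternatives each. Of 22 interferon response probes 0 were called.

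Some responses were shared. In both tissues 68 probes were called, 9.66% of those of liver and 63% of those of kidney, with both lists from the same rats. Over all tested probes 5.47% were called in kidney and 35.7% in liver, the shares to set beside the 9.66% and the 63%. For 39 of the 68 the difference was not called, and these rose in both tissues in 12 and fell in both in 27. For 13 others the direction was the same and the sizes differed, as in Arntl and Dbp, and for 16 the directions were opposite. Genes of immune cells and a complement gene were among the shared falls, all named after their values were seen. Emr1, the F4/80 antigen of macrophages, held 4.93 to 7.73 CPM in exposed against 10.3 to 18.01 CPM in control liver and 8.42 to 10.7 CPM against 13.9 to 25.2 CPM in kidney, a fall of 1.02 and 0.97 (difference -0.06, 95% interval -0.46 to 0.34). Cd4 fell by 0.71 and 0.74 (0.03, interval -0.35 to 0.41), and C3, the central complement component, by 0.70 and 0.91 (0.26, interval -0.15 to 0.68).

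Of 6 macrophage markers 4 fell in liver and 1 in kidney, and their summed level went from 89.06 to 128.3 CPM to 56.2 to 83.3 CPM in liver and from 1332 to 1642 CPM to 1087 to 1377 CPM in kidney. Of 4 tested lymphocyte markers 2 fell in each tissue. Of 3 tested neutrophil markers 0 rose and 0 fell in either tissue, with a summed level of 6.33 to 13.39 CPM in exposed against 4.64 to 10.26 CPM in control liver and 13.38 to 53.7 CPM against 9.73 to 23.6 CPM in kidney. Of 2 red cell markers and 3 stellate cell and fibroblast markers 1 each rose in liver. In the macrophage, lymphocyte and neutrophil lists 0 differences were called. The part of these cells in the other results was not tested. Complement and coagulation genes, made mostly by hepatocytes, fell in 23 of 27 in liver and 3 of 27 in kidney. Over all probes 35.7% were called in liver and 5.47% in kidney, in either direction. Only 3 of the 27 differences were called, all towards kidney (11.1%, below the 15.9% over all probes). Among them were Klkb1 (-0.92 ± 0.20) and Cfi (-0.50 ± 0.15, adjusted p = 0.019, not called with library totals only or without F604).

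Along the concentrations the difference appeared late. At 1, 10, 50 and 150 ppm edgeR called 0 probes, with 53 to 69 at an unadjusted p below 0.05 at the last 3 and more at 1 ppm; DESeq2 called 1 and voom 2 at 50 ppm, and both called 0 at 1, 10 and 150 ppm. At 400 ppm 48 probes were called, 2.43%, with 39 towards liver and 9 towards kidney, and 26 without F502. Cyp2b1 stood at 6.72 ± 0.90 (adjusted p = 1.47e-05) and Cyp2b2 at 6.42 ± 1.21 (adjusted p = 0.0013) at 400 ppm. Of the named genes, Abcc3 had 1.98 ± 0.25, Cdc20 1.86 ± 0.31, Ephx1 1.25 ± 0.20 and Aldh1a1 1.06 ± 0.19, while Fmo1 had -1.20 ± 0.23, Cyp4a2 -1.08 ± 0.20 and Dbp -0.83 ± 0.23, all of them called. Arntl (0.37 ± 0.17, adjusted p = 0.39), Pck1 (-0.56 ± 0.44, adjusted p = 0.69) and Glul (-0.37 ± 0.14, adjusted p = 0.19) were called at 800 ppm and not at 400 ppm. Alas1 was the reverse, called towards liver at 400 ppm (0.49 ± 0.12, adjusted p = 0.012) and not called at 800 ppm. Its change at 400 ppm was 0.52 in liver, called, and 0.02 in kidney, not called.

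**Figure D5:**
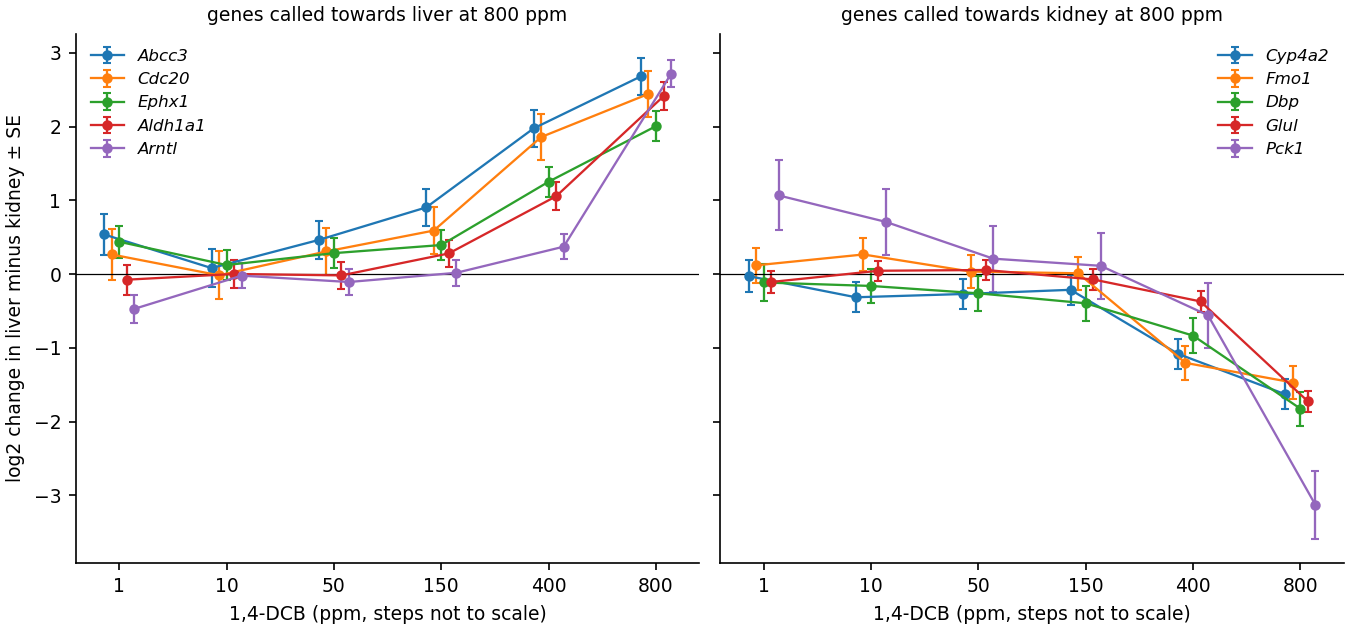
Difference of changes, liver minus kidney, on the log2 scale (± SE) at each concentration of 1,4-DCB for 5 genes called towards liver (left) and 5 towards kidney (right) at 800 ppm; all points share the same 10 control rats. Abcc3, Cdc20, Ephx1 and Aldh1a1 already stand above 1 at 400 ppm, whereas Arntl stands at 0.37 there and at 2.72 at 800 ppm.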

How the data were processed

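The deposited values are attenuation-adjusted raw read counts per probe, made by the authors with Bowtie 1.3.1, per the submitters' processing notes; settings, probe reference and build: not given in the sources used here. Of 2654 probes 115 hold only multiples of a step above 1 (up to 10); whether this comes from the adjustment was not tested. Counts have no molecular identifiers in the labels. The members and lists were chosen with earlier results of these data known.

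Counts were analysed with edgeR 4.0.16 in R 4.3.3 (filterByExpr within each tissue, minimum count 10; joint TMM; robust quasi-likelihood F test; Benjamini-Hochberg over 1974 probes; threshold 0.05). The difference was fitted over all 7 concentrations in 39 rats with both libraries, with each rat as a block, and changes within a tissue in fits of that tissue without a block, so they need not subtract exactly to the difference. The rat number in the titles pairs the libraries as tissues of the same animal; their deviations correlated at a median of 0.138 (-0.0325 to 0.258). Each rat is 1 replicate. CPM use TMM factors scaled within each tissue, because joint factors had medians of 0.388 in liver and 2.61 in kidney; a level compared across tissues is a share of its own library. Ratios use log2 CPM with a prior count of 2.

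Named genes were the 10 largest called differences in each direction with a group mean of 20 CPM or more, up to 2 called members per list, and 6 fixed genes; others were named after their values were seen. A gene that met this rule is not reported here. Alternatives were DESeq2 1.42.0, limma 3.58.1 voom, other scalings, filters and samples. The edgeR scripts were tested on simulated data. Of 1952 tested genes 1813 are current RefSeq symbols and 72 older ones; 1521 had a promoter window.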

Additional observations from a re-analysis of the deposited data

Results flagged for a closer look

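The comparison of the tissues itself stands out: 313 probes had a called difference at 800 ppm. In 16 probes both tissues had called changes of opposite sign, 12 of them up in liver and down in kidney and 4 the reverse. Among the genes described here these were Kif20a (difference 5.44), Cenpf (3.88), Spc24 (3.45), Mki67 (3.11), Ccnb2 (2.62) and Dhcr7 (1.48), up in liver and down in kidney, and Pck1 (-3.13), Glul (-1.73) and Cyp4a2 (-1.63), down in liver and up in kidney. For Kif20a, Cenpf, Mki67, Ccnb2 and Dhcr7 the kidney fall had an adjusted p of 0.023 to 0.042.

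Single rats stood apart from their group in the log2 ratio of liver to kidney in 7 of 90 groups of a gene and a concentration; chance alone flags about 1 in 20 groups. Control F1 did so in 3 genes: Acly at -2.16 (group median -0.77), Slc2a2 at 0.45 (median -0.40) and Igfbp1 at 1.02 (median -1.32). Its kidney library is the one that correlated least with the other control kidneys. Exposed rat F604 stood at -2.42 for Ppox (median -2.92) and -2.46 for Gapdh (median -2.80), and both differences lose their call without it. Exposed rat F601 stood at 5.16 for Klkb1 (median 4.47), and control F10 at 13.94 for Cyp3a2 (median 8.26), whose kidney level there was 0.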

How the results depend on the processing

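Without the replicate block 289 probes were called at 800 ppm, 268 of them among the 313, and Hmox1 reversed, from 0.07 to -1.93; without F602 it was 0.75 and called. Calls towards kidney fell from 150 to 90 with TMM within each tissue, 30 with library totals only and 93 in a fit of only the controls and 800 ppm; a separate fit of only the controls and 400 ppm gave 27 there. A filter at a mean of 20 CPM tests 365 probes and gave 89 (39 towards liver and 50 towards kidney), 10 at 400 ppm, 195 within liver and 46 within kidney. At 50 ppm DESeq2 gave 1 and voom 2. Leaving out 1 rat gave 235 to 327 at 800 ppm, 26 (without F502) to 62 at 400 ppm and 0 to 1 at 1 ppm. For the differences of named genes, 46 alternatives lost a call, 8 gained one and 1870 kept direction and side of the threshold; Edem1, Psma5, Ccnd1 and Il1r1 lost theirs in 5 or more. The shallowest kidney library held 4.2 M counts (M, 1e6), or 1.22 M with each probe divided by its step. In exposed liver 49 of 50 cell cycle genes lie below 20 CPM.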

Other observations

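The genes of this section were chosen after their values were seen. Among genes outside the lists, Prlr, Ccl24 and Folr2 were also towards kidney in all 5 rats, with the ratio of liver to kidney below every control. Prlr, the prolactin receptor, fell by 1.0 in liver with 0.19 in kidney (difference -1.15, adjusted p = 0.00092), Ccl24, a chemokine, fell by 1.18 in liver with 0.50 in kidney (-1.72), and Folr2, a folate receptor of macrophages, had -0.91 in liver and 0.74 in kidney (-1.69). Jun, an immediate early gene, was called towards kidney at 400 ppm (-1.40) and not at 800 ppm (-0.55, adjusted p = 0.32). Srebf1, the regulator of lipid synthesis, was called at both (-1.16 and -0.71).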
